A study of Mus musculus with 4 samples.

Results

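Penk encodes proenkephalin, the precursor of the enkephalin opioid peptides, and its counts were read in single CD4 T cells of the mouse colon. A cell was called Penk-positive when it held at least 1 Penk count, which gave 63 Penk-positive cells of 1050 cells. The other 987 cells are called Penk-negative. Cells were barcodes with at least 500 counts, at least 200 detected genes and under 20% mitochondrial counts. The cells were chosen by their Penk count, so the share and level of Penk are given as a description.

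The study profiled T cells of the colon lamina propria, the connective tissue beneath the gut epithelium, by inDrops, which captures single cells in droplets with barcoded primers. By their labels the 4 samples, Btheta_colon 1 to 4, form a single group of male mice of strain B6 that were 6 weeks old. The word Btheta in all 4 names may mark a treatment that the samples share. Beyond it no treatment, genotype or control group is named, so the mice cannot be taken as untreated. Cells were sorted for the surface proteins CD45, TCRb and CD4. All barcodes stand in 1 table without a sample name, so the 4 samples could not be told apart. The table was therefore handled as 1 sample: there is no replicate error, no test and no p-value, and every interval below is a 95% interval for counting error only.

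Proenkephalin is cut by proprotein convertases at pairs of basic residues, and carboxypeptidases then trim the ends to release Met-enkephalin and Leu-enkephalin. These peptides act mainly on the delta and mu opioid receptors and are broken down by peptidases such as neprilysin. In the gut, enkephalins are best known as transmitters of enteric neurons, and Penk transcripts are also known in T cells, including regulatory T cells. Regulatory T cells (Treg) carry the transcription factor Foxp3 and restrain immune responses, and in the colon many of them carry Gata3 or Helios, the product of Ikzf2.

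Penk lies on the minus strand of mouse chromosome 4 at chr4:4133531-4138819 (mm10, GENCODE vM21). Its main annotated transcript has 2 exons and 1449 bases, of which 804 are coding. The coding sequence holds 7 enkephalin units of 15 bases each, 6 for Met-enkephalin and 1 for Leu-enkephalin, all in exon 2. They are printed because they are what makes this transcript an enkephalin precursor. Each is given 5′ to 3′ in the sense direction with 6 bases on each side, the unit in capitals.
Met unit 1, chr4:4134328-4134354: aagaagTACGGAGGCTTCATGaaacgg
Met unit 2, chr4:4134307-4134333: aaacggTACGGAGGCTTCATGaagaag
Met unit 3, chr4:4134220-4134246: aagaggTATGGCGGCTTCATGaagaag
Met unit 4, chr4:4134067-4134093: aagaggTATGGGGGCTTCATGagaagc
Met unit 5, chr4:4133995-4134021: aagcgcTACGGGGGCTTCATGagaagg
Leu unit 6, chr4:4133935-4133961: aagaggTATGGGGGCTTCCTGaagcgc
Met unit 7, chr4:4133842-4133868: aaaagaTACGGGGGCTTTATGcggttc
Units 1, 2, 3, 5 and 6 are flanked on both sides by 2 codons for basic residues, and units 1 and 2 share the codons between them. Units 4 and 7 have 1 basic codon after the unit and then another codon. The Met motif TANGGNGGNTTNATG, searched on the sense strand of annotated transcripts, was found in 10 of 21901 protein-coding genes (0.0457%). Penk was the 1 gene with as many as 6 copies, and no other gene had more than 1. The Leu forms searched were TANGGNGGNTTNCTN and TANGGNGGNTTNTTN, which share their first bases with the Met motif. One annotated gene on the other strand, A830012C17Rik at chr4:4138321-4188703, overlaps the 5′ end of Penk over 499 bases. Whether counting used the strand is not given in the sources used here, so reads of that overlap cannot be assigned to 1 gene from the sources, and A830012C17Rik held 0 counts in the cells.

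The table held 1985 barcodes and 1690867 counts, and the 1050 cells held 1549040 of these counts. Depth per cell ran from 501 to 13023 counts with a median of 1235.5, and the median cell had 612 genes. Penk-positive cells had a median of 1300 counts (range 527 to 4278), 669 genes and 4.71% mitochondrial counts, and Penk-negative cells 1230 counts, 610 genes and 4.42%. CD4 T cell genes of the sort check (Ptprc, Cd3d, Cd3e, Cd3g, Cd4, Trac, Trbc1, Trbc2, Lck and Thy1) were detected in 63 of 63 Penk-positive cells and 968 of 987 Penk-negative cells, at summed levels of 9277 and 8508 CPM. CPM here is the count of a gene over the summed counts of the same cells, scaled in the usual way, so each cell weighs by its depth.

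Penk was found in few cells, and a few of them held many copies. Penk-positive cells made up 6% of cells (exact binomial interval 4.64 to 7.61). The 186 Penk counts gave a level of 120 CPM over all cells (exact Poisson interval 103 to 139). Of the Penk-positive cells, 27 had exactly 1 count and so lie at the threshold, next to the 987 cells with 0, and 36 had 2 or more. Then 14 cells had 2 counts, 9 had 3, 5 had 4, 2 had 5, 2 had 7, and 1 cell each had 8, 10, 13 and 29. The cell with 29 counts held 15.6% of all Penk counts, and the 8 cells with 5 or more held 84 counts, or 45.2%.

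This clumping was stronger than for most genes of like abundance. Among 2261 genes with 93 to 372 counts in these cells, 26 had more counts per positive cell than Penk, which had 2.95 against a median of 1.5. Penk was also found in fewer cells than most, since 131 of these genes had fewer positive cells and their median was 101. The variance of Penk over its mean was 8.25, against a median of 1.86, and 27 of these genes had a higher value. Counting intervals of the Penk level assume 1 source per count and are therefore too narrow where 1 cell gives many counts, so the ratio of each of the 5 gate genes is also given with Penk capped at 1 count per cell.

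**Figure D1:**
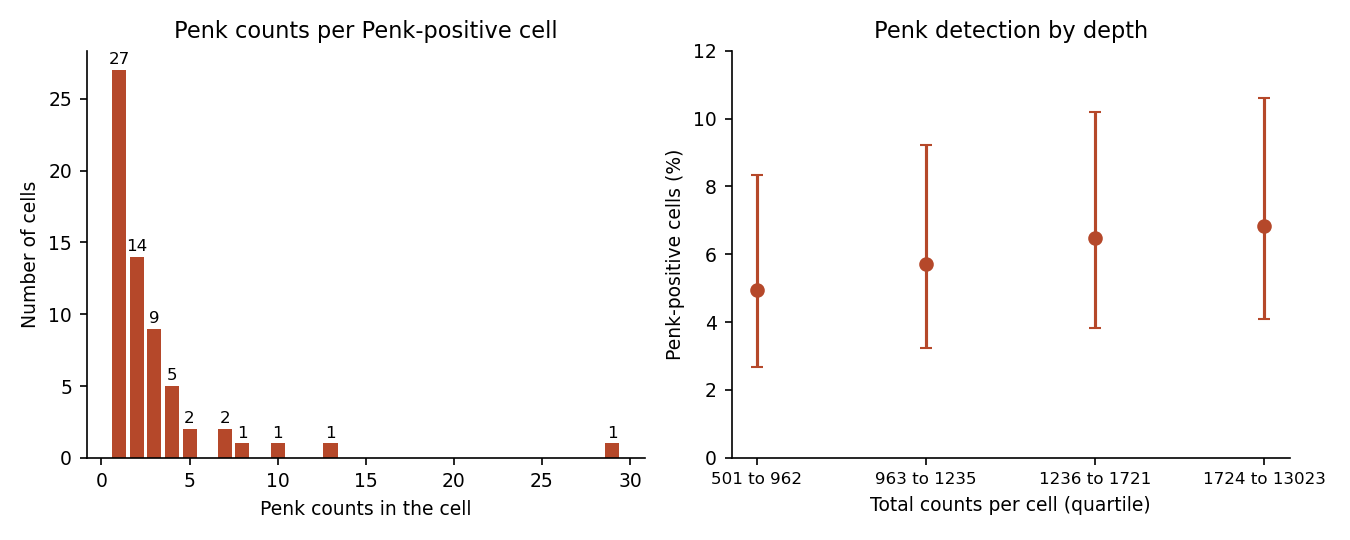
Left, number of Penk-positive cells (vertical axis) by the Penk counts in the cell (horizontal axis), with the number of cells above each bar. Right, percent of cells that were Penk-positive in each quartile of total counts per cell, with exact binomial 95% intervals; 27 of 63 cells had 1 count, 1 cell had 29, and the share lay between 4.96% and 6.84% in the 4 quartiles.

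Penk was detected somewhat more often in deeper cells, while its level showed no order by depth. From the shallowest to the deepest quartile of cells, 4.96%, 5.70%, 6.49% and 6.84% were Penk-positive, as the plot of detection by depth shows. The Penk level in the same quartiles was 126, 104, 113 and 129 CPM. The share intervals of all 4 quartiles overlap. When every cell was thinned to 500 counts, 3.14% of cells were Penk-positive (2.17 to 4.39).

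Background from free RNA was read in naive-gated cells, defined as cells with at least 2 of Ccr7, Lef1, Tcf7, Igfbp4, Dapl1 and Nsg2, which mark naive and recirculating T cells. A Penk count was present in 63 of 981 cells outside that gate (6.42%), at 129 CPM and a median depth of 1226 counts. It was found in 0 of 69 naive-gated cells, which allows a share of up to 4.35% by the floor of 3 counts and 5.21% by the exact binomial limit, at a median depth of 1465 counts. Both limits lie above the lowest shares given below for cells without Gata3, so 69 cells are too few to set a background for those. With the naive-gated level set to the floor over the group, Penk was at least 2.22 higher on the log2 scale in the cells outside the gate, or at least 0.52 with Penk capped at 1 count per cell.

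Penk was found in a higher share of cells with Gata3, Ikzf2 or Foxp3 than of cells without them, with share intervals that overlap slightly for Foxp3 and not for Gata3 or Ikzf2. Gata3 encodes a transcription factor of type 2 helper cells and of a subset of tissue Treg, and lies on chromosome 2 from 9857078 to 9890034. Penk was found in 49 of 572 cells with Gata3 (8.57%, interval 6.40 to 11.2) and in 14 of 478 cells without it (2.93%, 1.61 to 4.87). Its level was 186 CPM (159 to 217) in cells with Gata3 and 33.0 CPM (20.7 to 49.9) in cells without, a log2 ratio of 2.5 (exact conditional interval 1.85 to 3.21). With Penk capped at 1 count per cell the ratio was 1.38 (0.50 to 2.35). Neither the share nor the level intervals of cells with and without Gata3 overlap.

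Foxp3, on the X chromosome from 7573644 to 7595245, encodes the factor that defines Treg. Of the Foxp3-positive cells, 30 of 332 had Penk (9.04%, 6.18 to 12.6), and of the Foxp3-negative cells 33 of 718 (4.60%, 3.18 to 6.39). The Penk level was 235 CPM (195 to 281) in Foxp3-positive cells and 62.8 CPM (48.5 to 80.1) in Foxp3-negative cells, a log2 ratio of 1.90 (1.46 to 2.36). Capped at 1 count per cell the ratio was 0.85 (0.09 to 1.61), and without the cell of 29 counts it was 1.51 (1.04 to 2.0). The level difference was thus larger than the difference in the share of cells, since Foxp3-positive cells held 4.03 Penk counts per Penk-positive cell and Foxp3-negative cells 1.97.

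Ikzf2 encodes Helios, a transcription factor of thymic and some tissue Treg. Of cells with Ikzf2, 33 of 358 had Penk (9.22%, 6.43 to 12.7), and of cells without it 30 of 692 (4.34%, 2.94 to 6.13). Its level was 180 CPM in cells with Ikzf2 and 86.6 CPM in cells without, a log2 ratio of 1.05 (0.62 to 1.49), and 0.95 (0.19 to 1.71) capped. The cell with 29 Penk counts had no Ikzf2 count, and without it the levels were 180 and 57.6 CPM, a log2 ratio of 1.64 (1.16 to 2.14).

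Il10, whose product is a cytokine that dampens inflammation, went with a higher Penk level but less clearly with a higher share. Penk was found in 23 of 266 cells with Il10 (8.65%, 5.56 to 12.7) and in 40 of 784 cells without (5.10%, 3.67 to 6.88), so these intervals overlap. The level was 238 CPM with Il10 and 78.6 CPM without, a log2 ratio of 1.60 (1.17 to 2.03). Without the cell of 29 counts, which had 1 Il10 count, the ratio was 1.09 (0.61 to 1.56). Capped at 1 count per cell it was 0.67, and its interval (-0.14 to 1.44) held 0.

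Gzmb, the gene of the cytotoxic protease granzyme B, showed no order in which share and level went the same way. A Penk count was present in 15 of 185 cells with Gzmb (8.11%, 4.61 to 13) and in 48 of 865 cells without (5.55%, 4.12 to 7.29). The Penk level was 109 CPM with Gzmb and 123 CPM without, a log2 ratio of -0.17 (-0.76 to 0.39). With Penk capped at 1 count per cell the ratio was 0.40 (-0.54 to 1.27), so its sign turned and both intervals held 0.

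Cells with a gate gene were somewhat deeper, with median depths of 1336 and 1161 counts with and without Gata3 and 1304.5 and 1215 with and without Foxp3. With each cell thinned to 500 counts, Penk was found in 4.55% of cells with Gata3 and 1.46% without, in 5.12% with Foxp3 and 2.23% without, and in 5.31% with Ikzf2 and 2.02% without. For Il10 the thinned shares were 3.38% with and 3.06% without, and for Gzmb 2.16% with and 3.35% without. In 10 further thinning draws the share ran from 4.37% to 5.77% with Gata3 and from 1.26% to 2.09% without. It ran from 4.52% to 6.33% with Foxp3 and from 2.09% to 2.92% without. For Ikzf2 it ran from 5.03% to 5.87% with the gene and from 2.17% to 3.18% without. For Il10 it ran from 4.14% to 6.02% with the gene and from 2.68% to 3.32% without, so the 3.38% of the first draw with Il10 lay below all 10 further draws. For Gzmb the draws with the gene (2.16% to 4.86%) overlapped the draws without it (3.01% to 3.82%). The thinned share expected from the counts was 5.14% with Il10 and 3.15% without. For Gzmb it was 4.24% with and 3.53% without, the reverse order of the first draw.

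**Figure D2:**
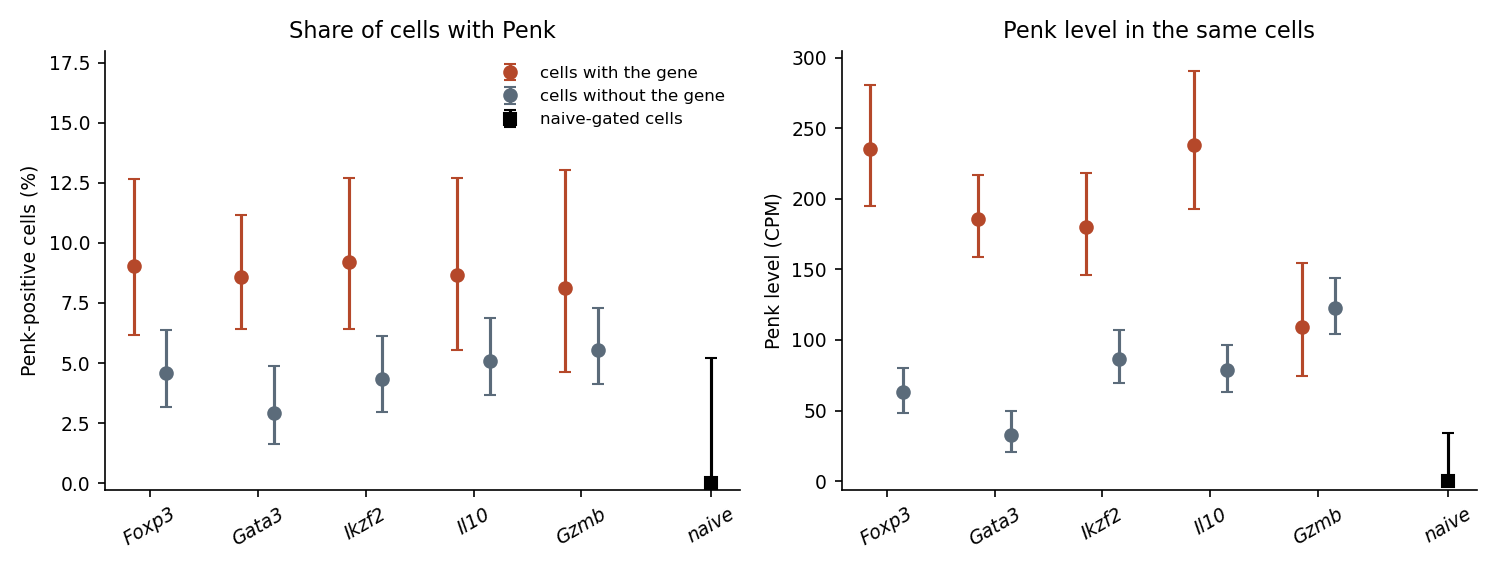
Percent of Penk-positive cells (left, exact binomial 95% intervals) and Penk level in CPM (right, exact Poisson 95% intervals) in cells with each of 5 genes, cells without it, and 69 naive-gated cells. For Gata3 and Foxp3 the level in cells with the gene (186 and 235 CPM) stands clear of that in cells without (33.0 and 62.8 CPM), for Gzmb the intervals overlap, and no naive-gated cell had Penk.

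Foxp3 and Gata3 together ordered the cells further. Cells with both genes had Penk in 24 of 201 cells (11.9%, 7.80 to 17.2) at 332 CPM (273 to 400). Cells with Gata3 and no Foxp3 had Penk in 25 of 371 cells (6.74%, 4.41 to 9.79) at 98.1 CPM (73.7 to 128). Cells with Foxp3 and no Gata3 had Penk in 6 of 131 cells (4.58%, 1.70 to 9.70) at 59.9 CPM (29.9 to 107). Cells with neither had Penk in 8 of 347 cells (2.31%, 1.0 to 4.49) at 22.7 CPM (11.4 to 40.7).

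In the order of levels, cells with both genes stand above the next group without overlap of intervals, while the next neighbours overlap. These level intervals are too narrow for clumped counts, and the share intervals of cells with both genes and with Gata3 alone overlap. The cell of 29 counts had both genes. Without it their level was 246 CPM, a log2 ratio of 1.33 (0.81 to 1.85) over cells with Gata3 alone. Double-positive cells held 38.1% of Penk-positive cells and 59.1% of Penk counts. Cells with Gata3 alone held 39.7% of Penk-positive cells and 29.0% of counts, and their Penk counts averaged 2.16 per positive cell, against 4.58 in double-positive cells. In all, 30 Penk-positive cells had a Foxp3 count and 33 had none. A Foxp3-negative cell here is one in which no Foxp3 count was captured at this depth, and it may still carry the transcript.

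**Figure D3:**
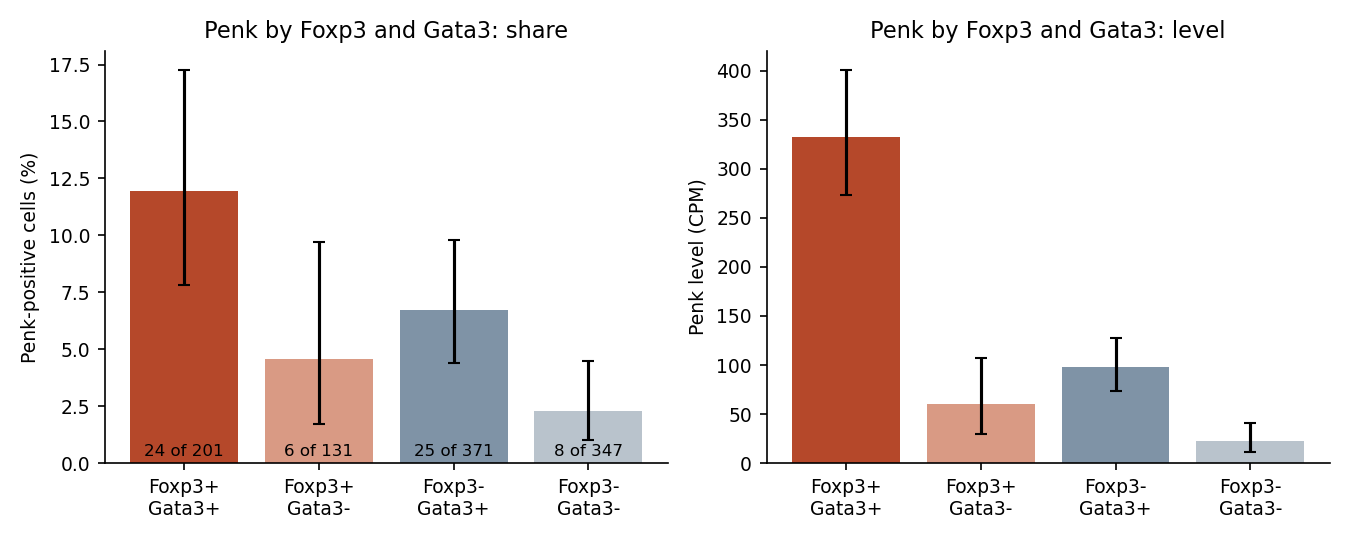
Percent of Penk-positive cells (left, exact binomial 95% intervals, with cell numbers in the bars) and Penk level in CPM (right, exact Poisson 95% intervals) in the 4 groups of cells set by detection of Foxp3 and Gata3. Double-positive cells are highest at 11.9% and 332 CPM, and cells with neither gene lowest at 2.31% and 22.7 CPM.

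Gata3 divided the Penk level on both sides of Foxp3. Within Foxp3-positive cells the log2 ratio of Penk in cells with Gata3 over cells without was 2.47 (1.57 to 3.51), and 2.04 (1.12 to 3.10) without the cell of 29 counts. Capped at 1 count per cell it was 1.17, with an interval (-0.16 to 2.75) that held 0. Within Foxp3-negative cells it was 2.11 (1.16 to 3.19), and 1.41 (0.21 to 2.77) capped. Within cells with Gata3, Foxp3 in turn gave 1.76 (1.28 to 2.26), with 0.69 (-0.18 to 1.56) capped.

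Ikzf2 and Il10 divided Penk less evenly across the Foxp3 groups. Within Foxp3-positive cells, Penk was found in 11.4% of cells with Ikzf2 and 6.63% of cells without, and the level ratio was 0.23 (-0.31 to 0.77), or 1.33 (0.65 to 2.05) without the cell of 29 counts. Within Foxp3-negative cells the shares were 7.29% with Ikzf2 and 3.61% without. For Il10 within Foxp3-positive cells the shares were 8.90% with and 9.14% without. The level there was 321 CPM with Il10 and 165 CPM without, and 197 and 165 CPM once the cell of 29 counts was left out, a log2 ratio of 0.26 (-0.37 to 0.88). Within Foxp3-negative cells Penk was found in 8.33% of cells with Il10 and 3.85% without.

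Gzmb had opposite ratios on the 2 sides of Foxp3. Within Foxp3-positive cells Penk was found in 7 of 106 cells with Gzmb (6.6%) at 86.8 CPM and in 23 of 226 cells without (10.2%) at 310 CPM, a log2 ratio of -1.84 (-2.72 to -1.05). Without the cell of 29 counts the ratio was -1.39 (-2.29 to -0.58), and capped at 1 count per cell it was -0.72 (-2.18 to 0.55). Within Foxp3-negative cells Penk was found in 8 of 79 cells with Gzmb (10.1%) at 142 CPM and in 25 of 639 cells without (3.91%) at 52.5 CPM, a log2 ratio of 1.43 (0.54 to 2.26) and 1.24 (-0.12 to 2.44) capped. The capped intervals held 0 on both sides, and the difference between the sides was not tested.

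The share of Penk-positive cells was higher the more of the 5 genes a cell held, up to 4. It was 1.65% in 242 cells with none of Foxp3, Gata3, Ikzf2, Il10 and Gzmb, 4.17% in 312 cells with 1, 7.31% in 219 with 2, 10.3% in 165 with 3 and 12% in 92 with 4. Of the 20 cells with all 5, 2 had Penk. Median depth was also higher in these groups, from 1172.5 counts with none to 1695.5 with 4, and thinned to 500 counts the shares were 0.826%, 2.56%, 3.65%, 5.45% and 6.52%.

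Cells with 5 or more Penk counts nearly all carried Foxp3 and Gata3, but they were also deeper than most. The median depth of all cells was 1235.5 counts, and detection of the 5 genes in cells of like depth is not given here. Of the 8 cells with 5 or more Penk counts, 8 had Gata3, 7 had Foxp3, 5 had Ikzf2, 5 had Il10 and 1 had Gzmb, at a median depth of 2082.5 counts. The top cell held 29 Penk, 5 Foxp3 and 6 Gata3 counts among 2235. The next held 13 Penk, 3 Foxp3, 3 Gata3 and 3 Il10 counts among 1930. Among the 27 cells with 1 Penk count, 18 had Gata3 (66.7%) and 12 had Foxp3 (44.4%), at a median depth of 1279 counts. Among the 36 cells with 2 or more, 31 had Gata3 (86.1%) and 18 had Foxp3.

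Detection was also read from the Penk side, for a choice of marker genes. Tnfrsf9, which encodes the costimulatory receptor 4-1BB, was found in 65.1% of Penk-positive cells (52.0 to 76.7) and 23.3% of Penk-negative cells (20.7 to 26.1). Tnfrsf4, the gene of OX40, was found in 69.8% and 33.8%. Klrg1, which encodes an inhibitory receptor of terminally differentiated effector cells and of a subset of Treg, was found in 58.7% and 26.5%. Ctla4, the gene of the inhibitory receptor CTLA-4, was found in 79.4% of Penk-positive and 50.9% of Penk-negative cells. Cd4 (42.9% and 38.7%) and Ptprc (55.6% and 55.2%), which mark the sorted population, were found at like shares.

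These orders held with every cell at 500 counts. The thinned shares in Penk-positive and Penk-negative cells were 36.5% and 14.1% for Tnfrsf9, 42.9% and 17.5% for Tnfrsf4, 36.5% and 17% for Klrg1, and 66.7% and 32.1% for Ctla4. Gata3 was found in 77.8% of Penk-positive and 53.0% of Penk-negative cells, or 57.1% and 35.7% thinned. Foxp3 was found in 47.6% and 30.6%, or 27.0% and 16.8% thinned.

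Transcript levels in Penk-positive over Penk-negative cells were then compared for the 4789 genes with at least 50 counts, with Penk left out of the totals. A gene was called when it was past 1.5-fold in both the summed counts and the counts capped at 1 per cell. By this rule 534 genes (11.2%) were higher and 761 (15.9%) lower in Penk-positive cells. With 63 cells on 1 side and no replicates, a call is a size and not a test, and many of these genes rest on a handful of counts. The median log2 ratio of all genes was -0.04. Since 1 gene chose the cells, the ratios describe what these 63 cells hold.

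The Treg signature had the highest list median. Of 18 measured genes of a 26-gene Treg core list, 9 were called higher, against 11.2% of all genes measured, and 0 lower, against 15.9%, with a median log2 ratio of 0.85 and 17 of the 18 above 0. The called genes were Cd83, Tnfrsf9, Klrg1, Tnfrsf4, Izumo1r, Ebi3, Ikzf4, Il2ra and Ikzf2. Tnfrsf9 stood at 1169 CPM in Penk-positive cells and 360 CPM in Penk-negative cells, a log2 ratio of 1.70 (1.39 to 2.0). Cd83, which encodes a surface glycoprotein of activated lymphocytes and dendritic cells, stood at 574 and 170 CPM (1.75, 1.30 to 2.18). Il2ra, the gene of the high-affinity interleukin 2 receptor chain CD25, stood at 335 and 193 CPM (0.80, 0.21 to 1.34). Foxp3 itself stood at 725 and 429 CPM (0.76, 0.37 to 1.12), and its capped interval (-0.02 to 1.12) held 0.

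The median of the Treg core list was larger among cells without a Foxp3 count, which did not hold for every list or gene. Within Foxp3-positive and Foxp3-negative cells, the tissue or effector Treg list had medians of 0.35 and 0.27. The AP-1 and CREB list had 0.28 and 0.07, and Nfkbid had ratios of 1.41 (0.40 to 2.31) and -0.31 (-2.21 to 1.08). The Treg core list had a median log2 ratio of 0.31 within Foxp3-positive cells and 1.09 within Foxp3-negative cells, where the medians of all genes measured were -0.03 and 0.02. Within Foxp3-positive cells 138 of 1791 measured genes (7.71%) were called higher and 258 (14.4%) lower in Penk-positive cells, and within Foxp3-negative cells 459 of 3469 (13.2%) and 589 (17.0%). Klrg1 stood at 1069 CPM in Penk-positive and 718 CPM in Penk-negative cells among Foxp3-positive cells (0.58, 0.12 to 1.0). Among Foxp3-negative cells it stood at 1208 and 339 CPM (1.84, 1.39 to 2.25). Tnfrsf9 gave 0.72 (0.23 to 1.19) within Foxp3-positive cells and 2.43 (2.01 to 2.83) within Foxp3-negative cells, and these intervals do not overlap, though the difference between the subsets was not tested.

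Receptors of the TNF receptor superfamily signal through the NF-kB pathway, and 6 of 19 measured genes of a list of both were called higher, against 11.2% of all genes, and 0 lower, against 15.9%. The median log2 ratio was 0.73, and 13 members were not called. The 6 genes called higher were Rel, Tnfrsf9, Tnfrsf4, Nfkbid, Cd27 and Tnfrsf1b, of which Tnfrsf9 and Tnfrsf4 are also in the Treg core list. Tnfrsf4, at 156013843 to 156016612 on chromosome 4, stood at 1169 CPM in Penk-positive and 474 CPM in Penk-negative cells (1.30, 0.99 to 1.60). Rel, the gene of the NF-kB subunit c-Rel, stood at 141 and 52.2 CPM (1.43, 0.46 to 2.29). Tnfrsf1b, the gene of TNF receptor type 2, stood at 465 and 277 CPM (0.75, 0.26 to 1.21). The list's median was 0.39 within Foxp3-positive cells, 0.59 within Foxp3-negative cells and 0.58 within cells with Gata3, where 249 of 3031 measured genes (8.22%) were called higher and 474 (15.6%) lower in Penk-positive cells.

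Genes of tissue or effector Treg were mixed. Of 21 measured, 4 were called higher (Il1rl1, Lag3, Nfil3 and Areg) and 1 lower (Ccr2), against 11.2% and 15.9% of all genes, with a median log2 ratio of 0.20. Il1rl1, the gene of the interleukin 33 receptor ST2, was detected in 12 of 63 Penk-positive cells and 64 of 987 Penk-negative cells, and stood at 184 and 72.8 CPM (1.34, 0.51 to 2.08). Areg, which encodes the tissue repair factor amphiregulin, stood at 292 and 139 CPM (1.08, 0.44 to 1.66). Lag3, an inhibitory receptor gene, stood at 108 and 30.2 CPM, from 10 counts in Penk-positive cells, and its capped interval (-0.25 to 2.54) held 0. Ccr2, a chemokine receptor gene, stood at 303 and 647 CPM (-1.10, -1.69 to -0.55). Within Foxp3-positive cells Ccr2 stood at 293 CPM in Penk-positive and 919 CPM in Penk-negative cells.

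**Figure D4:**
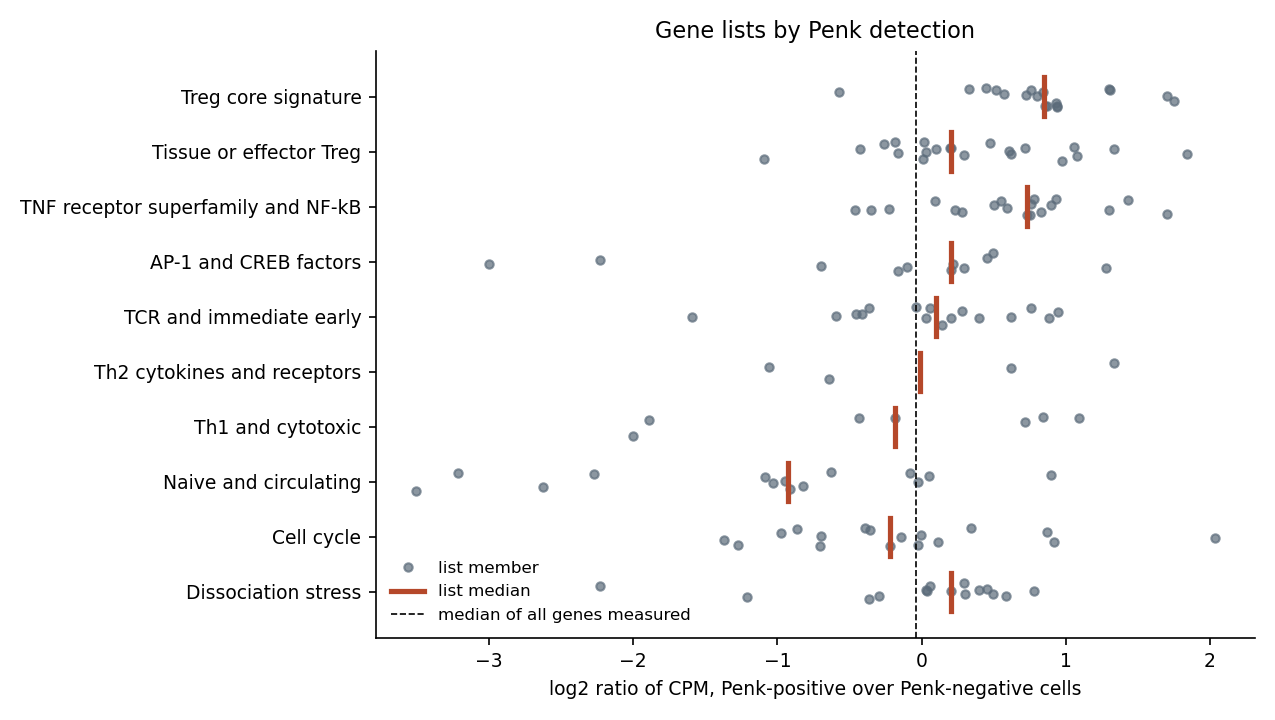
Log2 ratio of CPM in Penk-positive over Penk-negative cells (horizontal axis) for the measured members of 10 gene lists (rows). Each point is a gene, red bars are list medians and the dashed line is the median of all 4789 genes at -0.04; the Treg core list (0.85) and the TNF receptor and NF-kB list (0.73) lie highest and the naive list (-0.93) lowest.

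Of 14 measured genes of naive and recirculating T cells, 7 were called lower in Penk-positive cells (Tcf7, Satb1, Ccr9, Igfbp4, Bcl2, Txk and Lef1), against 15.9% of all genes, and 1 higher (Cd27), against 11.2%, with a median log2 ratio of -0.93. Tcf7, which encodes a factor of naive and memory T cells, had 1 count in Penk-positive cells, 10.8 CPM, against 123 CPM in Penk-negative cells (-3.51, -8.82 to -1.01). Ccr7, a lymph node homing receptor gene, was found in 0 of 63 Penk-positive cells and 32 of 987 Penk-negative cells. The median was -0.41 within Foxp3-positive cells and -0.29 within Foxp3-negative cells. The 7 genes called lower had 1 to 5 counts each in Penk-positive cells, so their ratios are imprecise, and thinned to 500 counts per cell the list median was 0.14 over the 8 members that gave a ratio.

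Of all genes, 11.2% were called higher and 15.9% lower, and the lists of other T cell states are to be read against these shares. Of 11 measured AP-1 and CREB factor genes, 1 was called higher and 2 lower. The 1 higher was Crem, which encodes a modulator of cyclic AMP responses, at 509 CPM in Penk-positive and 210 CPM in Penk-negative cells (1.28, 0.80 to 1.72). Of 16 T cell receptor and immediate early genes, 3 were higher (Nfkbid, Nr4a1 and Nr4a3) and 1 lower (Ifrd1), with a median of 0.10. Nr4a1, a gene induced by receptor signalling, stood at 822 and 446 CPM (0.88, 0.52 to 1.23). The intervals of Nfkbid (-0.05 to 1.49) and Nr4a3 (-0.57 to 2.17) held 0. Of 15 genes induced by tissue dissociation, 0 were called higher and 2 lower (Fosb and Btg2), with a median of 0.20 and 11 of the 15 above 0. Among them, Dusp1 stood at 3831 and 2551 CPM (0.59, 0.43 to 0.74). It was not called, since its capped ratio was 0.25 (-0.18 to 0.66). Of 17 cell cycle genes, 1 was higher and 3 lower, with a median of -0.22.

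Helper cell lists were small at this depth. Of 4 measured type 2 genes, Il1rl1 was called higher and Ccr4 lower, and Il4, Il5 and Il13 had too few counts to be measured. Of 7 measured type 1 and cytotoxic genes, 1 was called higher (Ccl5) and 2 lower (Nkg7 and Ifng). The Ccl5 ratio of 0.72 (-0.19 to 1.52) turned to -1.40 (-4.46 to 0.48) with Penk-positive cells from 2 counts. Nkg7, a cytotoxic granule gene, stood at 43.3 CPM in Penk-positive and 161 CPM in Penk-negative cells (-1.89, -3.78 to -0.52).

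The 8 genes whose counts followed Penk most closely over single cells were Tnfrsf9, Glg1, Tnfrsf4, Klrg1, Zfp36l1, Cd81, Tssc1 and Cd83. Likeness was Pearson's correlation of log2(counts per 10000 + 1) over 1050 cells, which share 1 table and differ in depth. Values ran from 0.154 to 0.227, which is weak and in sparse counts only ranks the genes. Glg1, the gene of a Golgi glycoprotein, stood at 325 CPM in Penk-positive and 80.3 CPM in Penk-negative cells (2.01, 1.38 to 2.60). Its ratio was alike in each subset, at 1.99 within Foxp3-positive, 1.94 within Foxp3-negative and 2.22 within Gata3-positive cells. Cd81, a tetraspanin gene, stood at 455 and 141 CPM (1.69, 1.18 to 2.18). Zfp36l1, which encodes a factor that promotes mRNA decay, stood at 2662 and 1157 CPM (1.20, 1.0 to 1.40), with 0.60 (0.17 to 1.0) capped.

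By the smaller of the summed and capped ratio, the 12 highest genes were Tssc1, Il10ra, Frmd5, Gnl3l, Hacd2, Glg1, Itgav, Commd3, Snrnp48, Sharpin, Dtx3 and Tm9sf1. Their summed log2 ratios ran from 1.79 to 2.69, and the genes were found in 6 to 18 Penk-positive cells. Il10ra, the gene of the interleukin 10 receptor chain that binds the cytokine, stood at 260 CPM in Penk-positive and 42.6 CPM in Penk-negative cells (2.61, 1.86 to 3.31). Its ratio was 3.54 (2.68 to 4.36) within Foxp3-negative cells and 0.71 (-1.28 to 2.25) within Foxp3-positive cells. With Penk-positive cells from 2 counts it was 1.30 (-0.20 to 2.5), and that of Gnl3l was 0.14 (-2.95 to 2.08) against 2.04. The ratio of Tm9sf1 was 0.39 (-5.03 to 3.14) when thinned, against 2.09. Itgav, the gene of an integrin chain that takes part in activating TGF-beta, stood at 97.4 and 28.2 CPM (1.79, 0.56 to 2.85).

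Among genes with a count on both sides, the 8 lowest were Tcf7, P2rx7, Pcnp, Kcnab2, Pecam1, Max, Mafg and Fam96a, each found in 1 Penk-positive cell. P2rx7, the gene of an ATP-gated channel, stood at 10.8 CPM in Penk-positive cells and 114 CPM in Penk-negative cells (-3.40, -8.71 to -0.90). The upper bounds of the summed ratios of all 8 were below 0. The genes were picked as the lowest of all, so these bounds do not show that they are lower. The capped interval of Fam96a (-7.82 to 0.02) held 0. With 1 or 2 counts each, the order of the 8 genes is not resolved.

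**Figure D5:**
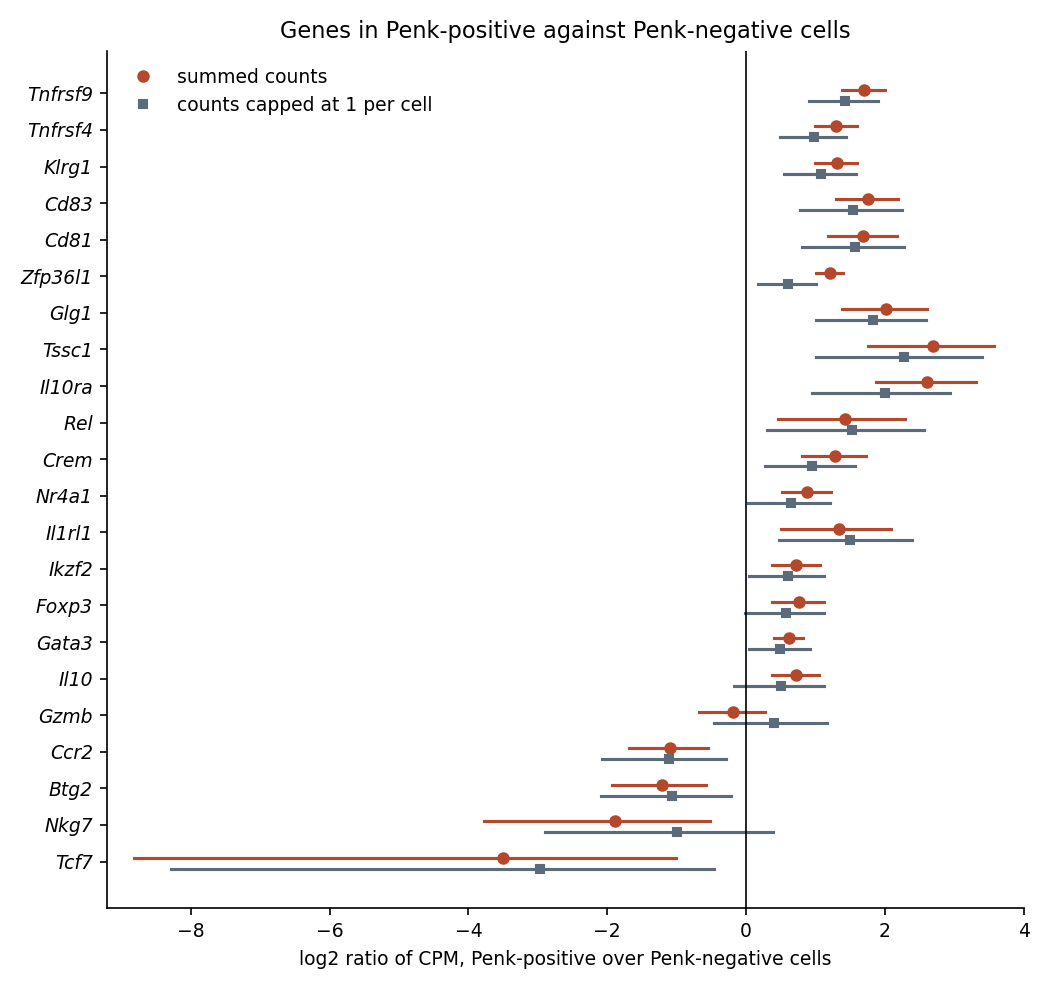
Log2 ratio of CPM in Penk-positive over Penk-negative cells (horizontal axis) for 22 named genes (rows), from summed counts and from counts capped at 1 per cell, with exact conditional 95% intervals. Tnfrsf9, Tnfrsf4, Klrg1, Cd83, Cd81 and Glg1 lie above 0 on both measures, Ccr2, Btg2 and Tcf7 below 0 on both, and Gzmb spans 0.

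The rest of the opioid system was sparse in these cells. None of the genes of other opioid precursors reached the minimum of 50 counts: Pdyn (prodynorphin) and Pnoc (prepronociceptin) had 0 counts, and Pomc (proopiomelanocortin) had 6, all in Penk-negative cells. Among the receptors, Oprd1, the delta receptor gene, had 0 counts, which at this depth allows up to 1.94 CPM over all cells. Oprm1, the mu receptor gene, had 3 counts, Oprk1 (kappa) 2 and Oprl1 (nociceptin) 1, all in Penk-negative cells. Ogfr, which encodes a nuclear-associated receptor of Met-enkephalin that is unrelated to these, was measured at 108 CPM in Penk-positive and 96.1 CPM in Penk-negative cells (0.17, -0.92 to 1.09).

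Of 14 genes of propeptide processing, 4 were measured. Of these, 0 were called higher and 1 lower in Penk-positive cells, against 11.2% and 15.9% of all genes. A list of 4 is too small to be set apart from those shares. Furin, a widely expressed proprotein convertase gene, stood at 97.4 and 154 CPM (-0.66, -1.81 to 0.29). The neuroendocrine convertase genes Pcsk1 and Pcsk2 had 21 and 2 counts in all, of which Penk-positive cells held 1 and 0. Cpe, the carboxypeptidase that trims enkephalins in neurons, had 5 counts. The other carboxypeptidase genes Cpd and Cpm stood at 75.8 and 43.3 CPM in Penk-positive cells and 94.8 and 62.5 CPM in Penk-negative cells. Pcsk7, called lower, had 1 count in Penk-positive cells, and its interval (-7.18 to 0.68) held 0.

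Of 10 genes of enkephalin-degrading peptidases, 5 were measured. Of these, 0 were called higher and 1, Rnpep, lower, against 11.2% and 15.9% of all genes, and 5 genes are likewise too few. Mme, the gene of neprilysin, stood at 271 CPM in Penk-positive and 199 CPM in Penk-negative cells (0.44, -0.21 to 1.03). Dpp3, Dpp4 and Npepps each had 5 counts in Penk-positive cells, at 54.1 CPM, and the intervals of all 3 ratios held 0. Precursor and neprilysin transcripts were thus both present in the population, whereas counts of the classical opioid receptors were near 0.

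Most markers of other cell types were at 0 in Penk-positive cells, and the myeloid list was the most often detected. Of 14 epithelial markers 12 were at 0 in Penk-positive cells, and their summed level was 21.6 CPM in Penk-positive and 2280 CPM in Penk-negative cells. A single Penk-negative cell held 1226 of the 3321 epithelial counts there, and 3.17% and 5.17% of cells had at least 1 such marker. Of 12 stromal, endothelial or glial markers, 10 were at 0, with summed levels of 32.4 and 503 CPM. Here 1 Penk-negative cell held 241 of 732 counts, and 4.76% and 13.1% of cells had at least 1 such marker. Of 15 myeloid markers 11 were at 0, with 529 and 671 CPM. At least 1 of them was found in 27 Penk-positive cells (42.9%) and 275 Penk-negative cells (27.9%), and 4 Penk-positive cells (6.35%) and 32 Penk-negative cells (3.24%) had at least 2 of them. The part of these cells in the results was not tested. Of 9 B or plasma cell markers 7 were at 0, and of 9 CD8, gamma delta, innate or NK markers 8 were at 0. No Penk-positive cell had 2 or more epithelial, stromal, B or plasma, or NK markers. Among Penk-negative cells these shares were also low, at 1.11%, 1.01%, 0.203% and 0.101%. With so few Penk-positive cells, finding none does not set them apart from Penk-negative cells. The share of all genes at 0 in Penk-positive cells is not given here, so the numbers of markers at 0 have no background to be read against. Scrublet called 10 cells doublets (0.952%), of which 0 were Penk-positive.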

How the data were processed

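Single CD4 T cells of the mouse colon were measured by inDrops in 4 samples of 1 group. The authors deposited raw counts for each gene in each barcode. The tools TopHat2 and SAMtools and the build mm10 are named, without roles, in the submitters' processing notes. How reads were counted, whether strand was used and whether molecular identifiers were collapsed is not stated there or in the labels, so intervals and floors cover counting error only. Counts that share an amplified molecule would make them too narrow.

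Barcodes carry no sample, so the table was 1 sample and tests over samples were not used. Cells had at least 500 counts, 200 genes and under 20% mitochondrial counts, and doublets were kept in the main values (Scrublet in scanpy 1.11.5 with scikit-image 0.26.0 called them for an alternative). Penk detection and the gates used at least 1 count. CPM was computed from summed counts. Shares have exact binomial (Clopper-Pearson), levels exact Poisson and ratios exact conditional 95% intervals (scipy 1.17.1). A side of 0 was set to 3 counts. Ratios were tested on simulated independent Poisson counts, which do not clump, so that test does not bear on the intervals of clumped genes.

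Thinning drew 500 counts per cell, with gates set on all counts. Genes named are the 5 gate genes, the measured opioid lists, the 12 highest and 8 lowest by the smaller of the summed and capped ratios, both of 1 sign, in genes with 50 counts and 30 cells, the 8 of highest correlation, and up to 4 members of each list. Ribosomal, mitochondrial, receptor variable, immunoglobulin and predicted genes were left out of the ranking. Detection shares of Ctla4, Ccr7, Cd4, Ptprc, Cd3e and Trac fall outside this rule and were chosen after their values were seen. The same holds for the called list members Izumo1r, Ebi3, Ikzf4, Il2ra, Areg, Cd27, Tnfrsf1b, Bcl2, Txk and Lef1. Sequences and positions come from GENCODE vM21. Members and lists were chosen with earlier results of these data known, and some genes are in several lists. A gene is not reported here and was left out of the lists and gates. Alternatives changed the count minimum (1000), the mitochondrial limit (10%), doublets, other-type cells, depth, the Penk minimum (2), capping, cell weighting, the top cell and the cells used. The restrictions to Foxp3-negative and to Gata3-positive cells were added after seeing the data.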

Additional observations from a re-analysis of the deposited data

Results flagged for a closer look

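Penk counts were also present outside the cells, in barcodes that did not pass the cell filter. The 935 failed barcodes held 6 Penk counts among 141827 counts, a level of 42.3 CPM (exact Poisson interval 15.5 to 92.1), above the 21.2 CPM that a count of 0 allows. Penk was found in 2 of these barcodes (0.214%). One held 5 Penk counts among 428 counts and 235 genes, and the other held 1 among 118 counts. The cells stood above the failed barcodes by 1.51 on the log2 scale (0.36 to 2.97). The cause was not tested.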

How the results depend on the processing

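No paired analysis was possible because the barcodes carry no sample number, and for the same reason no replicate could be left out. Of the summary results under the alternatives tried, 184 were not marked as changed, 16 were marked as moved and 1 as reversed. Of the values of single genes, 723 were not marked and 60 were marked as moved. A value that was not marked could still differ from the reported one. The Treg core list median was 0.85 as reported and 0.31 within Foxp3-positive cells, and the cell cycle list median was -0.22 as reported and 0.27 thinned. Thinned values rest on 1 draw, in which the share of cells with both Il10 and Penk was low. The Penk-positive share was 3.14% thinned, with 3.65% expected from the counts, and 3.43% from 2 counts. With Penk capped at 1 count per cell, the log2 ratio by gate was 0.85 for Foxp3, 1.38 for Gata3, 0.67 for Il10 and 0.40 for Gzmb. With each cell weighing the same, it was 1.34 for Foxp3 and 1.15 for Il10. Without the cell of most Penk counts it was 1.64 for Ikzf2 and 1.09 for Il10, and thinned it was 0.90 for Il10. Genes higher by Penk detection made up 18.7% when thinned and 18% with each cell weighing the same, and genes lower made up 24.3% with each cell weighing the same. The median of the type 1 and cytotoxic list was -0.73 thinned and -0.88 with Penk-positive cells from 2 counts. The naive list reversed to 0.14 when thinned, where 8 of its 14 members had a ratio. The cause of these moves was not tested. With 92404 counts in Penk-positive cells, a gene at 0 there may stand at up to 32.5 CPM, so the order of genes this low is not resolved.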
